A study of Homo sapiens with 6 samples.

Results

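Mitosis and spindle genes are the 50 genes PLK1, AURKA, AURKB, NEK2, the checkpoint genes BUB1, BUB1B, BUB3, MAD2L1, CDC20 and TTK, and others that build the kinetochore, drive the spindle motors, hold and release sister chromatids, or divide the cell. They were chosen as a list of gene names, and every probe that the array files assign to one of these names was taken. All 50 genes were on the array, with 70 probes, of which 67 passed the filter described below, and all 50 genes kept a probe. For comparison, the files hold 36337 gene names or identifiers in all, of which 15281 had a probe that passed.

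The cells were the lines HSC-3, KON, and Ca9-22, all derived from oral squamous cell carcinoma (OSCC), the common cancer of the mouth lining. Each line was transfected with siDLEU1-2, a small interfering RNA against the long noncoding RNA DLEU1, or with a control siRNA (siCtrl), and RNA was collected 72 h later. One array was hybridized per line and siRNA, so 6 arrays on 1 slide hold 3 pairs, and a single line gives no error for its change. No genotype, passage, or further agent distinguishes the groups in the labels, and a single siRNA sequence stands for DLEU1 knockdown, so that effects of its sequence and of losing DLEU1 cannot be told apart. Its antisense strand is shown to identify the agent, with the seed, positions 2 to 8, in capitals, and member transcripts were not searched for matches to it.
antisense strand: uUAAGUGCgauaaccccugua

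The target was lower in every line. For the single DLEU1 probe the log2 fold changes were -4.10 (HSC-3), -3.63 (KON), and -3.44 (Ca9-22). The 75th percentile of the signal was 200 to 257 over the 6 arrays, 43.0% to 45.7% of probes exceeded background clearly, and 0 spots were saturated. All 8 squamous epithelial markers were well above background on all 6 arrays. Of the fibroblast markers, COL1A2, COL3A1, and LUM were well above background on no array and COL1A1 on all, and the summed level of the list was 0.721 to 0.879 after siCtrl and 1.70 to 2.91 after siDLEU1-2, in units of the array's 75th percentile signal. COL1A1 was called higher by limma over the 3 lines, with log2 fold changes of 2.08 (HSC-3), 1.32 (KON), and 0.96 (Ca9-22). The summed squamous level was 237 to 889 after siCtrl and 133 to 364 after siDLEU1-2. Of the 8 squamous markers, 4 were called lower by limma, against 4.52% of all probes. Of the 4 leukocyte markers only CD68, which many cell types also express, was on all arrays, and no endothelial marker was. CD68 was lower in every line, with log2 fold changes of -1.48, -1.64, and -1.06 in the order HSC-3, KON, Ca9-22 (limma adjusted p = 0.0278), and the summed leukocyte level was 0.837 to 4.90 after siCtrl and 0.865 to 1.72 after siDLEU1-2. The summed endothelial level was 0.217 to 0.797 after siCtrl and 0.357 to 1.61 after siDLEU1-2. The part of these shifts in the results below was not tested.

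In mitosis the duplicated chromosomes are compacted, attached by their kinetochores to the microtubules of the spindle, and pulled apart once every chromosome is attached. The spindle assembly checkpoint holds the anaphase-promoting complex in check until then, and the chromosomal passenger complex corrects wrong attachments. Most of these genes are transcribed mainly in G2 and M phase, through the DREAM complex, B-MYB, and FOXM1, which act at promoters that carry a cell cycle genes homology region (CHR) and CCAAT boxes. In growing cultures their RNA therefore follows the number of dividing cells, as MKI67, which encodes the proliferation marker Ki-67, is used to show. In RNA from whole cultures, fewer cells in G2 and M phase and less RNA per cell cannot be told apart.

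Promoters in the RefSeq table of GRCh38.p14, from 250 bases before to 50 after the transcription start, were matched by symbol for 40 of the 50 genes. The CHR, written TTTGAA or TTCGAA and searched on both strands, was found in 32 of these 40 (80%), against 16.6% of all 27305 promoters of that length. CCAAT, also on both strands, was found in 31 (77.5%) against 35.7%, and both motifs in 26 (65%) against 6.58%. In the 100 bases before the start, 21 members (52.5%) held a CHR against 5.22%. TTCCCGC, a site for E2F factors, was in 5 (12.5%) against 6.56%. The 60 bases before the start are shown for some members as examples, with the CHR, the CCAAT box, or their merged run in capitals.
PLK1 (chr16:23678829-23678888, plus strand): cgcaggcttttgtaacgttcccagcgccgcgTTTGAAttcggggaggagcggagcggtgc
MKI67 (chr10:128126424-128126483, minus strand): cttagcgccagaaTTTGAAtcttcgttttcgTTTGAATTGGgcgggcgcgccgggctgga
KIF11 (chr10:92593070-92593129, plus strand): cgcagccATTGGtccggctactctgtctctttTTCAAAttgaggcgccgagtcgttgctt
PRC1 (chr15:90994536-90994595, minus strand): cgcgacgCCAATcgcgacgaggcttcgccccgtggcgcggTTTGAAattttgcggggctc
KIF14 (chr1:200620752-200620811, minus strand): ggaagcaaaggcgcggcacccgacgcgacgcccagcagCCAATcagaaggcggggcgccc
CENPE (chr4:103198344-103198403, minus strand): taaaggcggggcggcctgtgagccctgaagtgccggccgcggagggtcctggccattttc

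PLK1, MKI67, KIF11, and PRC1 thus share a CHR within these windows. Other named members, AURKB, BUB1, CENPF, TOP2A, and CCNF, held no CHR in this window and are not shown. KIF14 has a CCAAT box in its window and a CHR just after the start, outside the window, and CENPE held neither motif in the whole promoter. The motifs in these letters are a description and do not show that a factor binds. Among the 32 members with a CHR the median was -0.70 in HSC-3, -0.50 in Ca9-22, and 0.11 in KON. Among the 8 without one it was -0.63, -0.41, and 0.18 in the same order. Whether the motif bears on the order of the lines was not tested.

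The lines differed in how these genes stood after siDLEU1-2. Within each line, the log2 fold change is the siDLEU1-2 value minus the siCtrl value of the log2 signal, taken relative to each array's 75th percentile, and a gene is represented by its brightest passing probe. In HSC-3, 44 of the 50 genes were below 0, with a median of -0.61, which is 1.53-fold lower. In Ca9-22, 39 were below 0, with a median of -0.38. In KON, 16 were below 0 and 34 above, with a median of 0.23 (1.18-fold higher). With each array centered on its median instead, 19 were below 0 in KON and the median there was 0.12, after a shift of all probes to a median of -0.10. Over all 19956 probes that passed the filter the medians were close to 0, at -0.0016 (HSC-3), 0.019 (KON), and -0.0083 (Ca9-22).

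**Figure D1:**
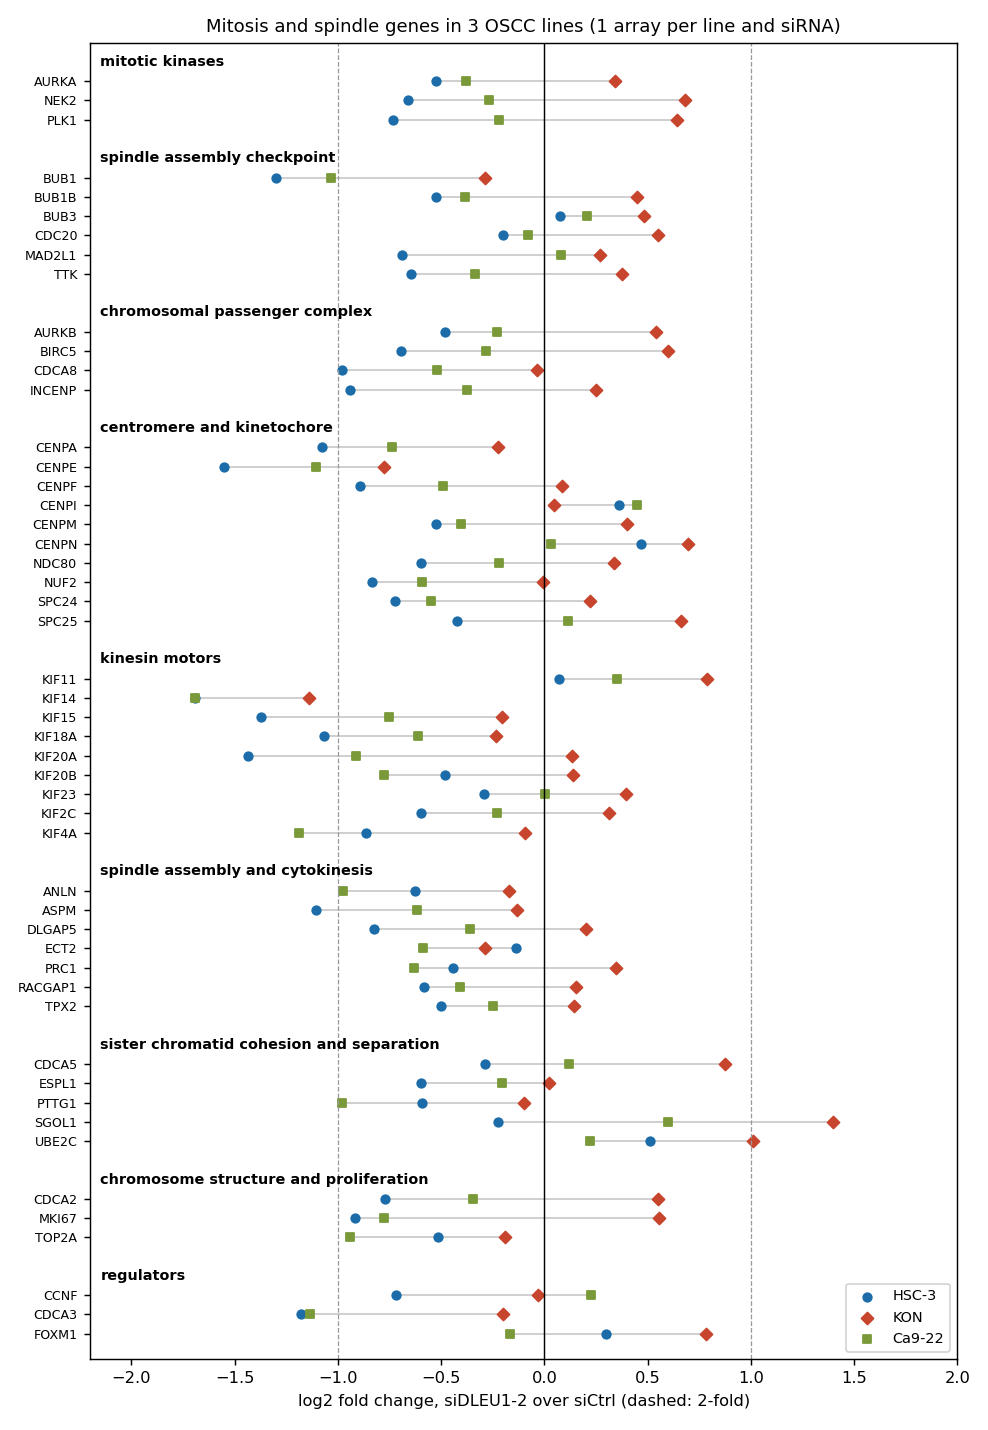
Log2 fold change (x axis, siDLEU1-2 over siCtrl) of each of the 50 genes, grouped by role, with 1 point per cell line (HSC-3 circles, KON diamonds, Ca9-22 squares), dashed lines at 2-fold, and no error because each point rests on 1 array pair. KON diamonds lie to the right of both other lines for 47 genes, and for KIF14 the HSC-3 point is hidden behind that of Ca9-22.

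Few of these differences were over 2-fold. In HSC-3, 9 members were over 2-fold lower, against 6.68% of all probes tested, and 0 were over 2-fold higher against 7.53%. In Ca9-22, 5 were over 2-fold lower (6.46% of all probes) and 0 higher (6.56%). In KON, 1 was over 2-fold lower (7.29% of all probes) and 2 were over 2-fold higher (7.3%). The 2 higher genes were SGOL1, now SGO1, which protects cohesin at the centromere, and UBE2C, the ubiquitin-conjugating enzyme of the anaphase-promoting complex. Their log2 fold changes in KON were 1.40 and 1.01. With quantile normalization, median centering, or a percentile over detected probes only, 1 was over 2-fold higher in KON, and with median centering 8 were over 2-fold lower in Ca9-22. In KON and another line, 0 members were over 2-fold in opposite directions, for which no share of all probes is given here. In all 3 lines, 1 member was over 2-fold lower, against 2.08% of all probes.

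That gene was KIF14, a kinesin needed to complete cytokinesis. Its probe, on chromosome 1 of hg19 from 200521324 to 200521383 and assigned to NM_014875, gave log2 levels in HSC-3 of 2.01 with siCtrl and 0.31 with siDLEU1-2. In KON the levels were 2.64 and 1.497. Those of Ca9-22 were 1.88 and 0.18. Each siDLEU1-2 array lay below every siCtrl array. KIF14 was 3.24-fold lower in HSC-3, 3.23-fold lower in Ca9-22, and 2.20-fold lower in KON. Its mean log2 fold change was -1.51 ± 0.32 (SD, n = 3 lines; limma adjusted p = 0.0259).

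CENPE, the kinesin at the kinetochore that carries chromosomes to the spindle equator, was the other gene called by limma. Its probe, on chromosome 4 of hg19 from 104027339 to 104027398 and assigned to NM_001813, gave log2 levels in HSC-3 of 1.36 with siCtrl and -0.19 with siDLEU1-2. The levels in KON were 2.41 and 1.63. Those of Ca9-22 were 2.14 and 1.04. Within each line the siDLEU1-2 array was the lower, although the KON value after siDLEU1-2 was above the HSC-3 value after siCtrl. The mean log2 fold change was -1.14 ± 0.39 (SD, n = 3 lines; limma adjusted p = 0.0416). CENPE is 1 of 5 members whose probe is spotted 10 times, and its spots had an SD of 0.062 to 0.12 on the log2 scale within an array, which covers error within an array only.

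With limma over the 3 lines, 2 members were thus called lower, against 4.52% of all probes, and 0 were called higher against 3.98%. At an unadjusted p below 0.05 there were 12 of 50, against 29.5% of all probes. Neither share was above the background. Both calls were lost without any 1 of the lines, when 0 probes in all were called, as well as without the cell line as a block or without the filter on dim probes, and their adjusted p over the alternatives lay between 0.0140 and 0.665 for KIF14 and between 0.0210 and 0.926 for CENPE.

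The members ranked highest in KON in most cases, although the difference passed the adjusted test for none. The log2 fold change was highest in KON for 47 of 50 members, against 35.9% of all probes. The exceptions were CENPI, ECT2, and CCNF. For 23 members it was above 0 in KON and below 0 in both others, against 9.26% of all probes. For 38 members HSC-3 was below Ca9-22 and Ca9-22 below KON, against 18.8%. Of the 67 member probes that passed, 61 were highest in KON. Of the 14 genes with several passing probes, CENPI and KIF20B had probes with KON contrasts, as defined next, of both signs.

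As the KON contrast, the log2 fold change in KON minus the mean of those in HSC-3 and Ca9-22 was taken. Its median over the members was 0.74, with a range from -0.36 (CENPI) to 1.40 (MKI67), and 49 of 50 members were above 0. No member was called in this contrast by limma (lowest adjusted p = 0.790), and neither was any of the 19956 probes (0%), of which 1199 had an unadjusted p below 0.05. The fit has 1 residual degree of freedom, the difference between HSC-3 and Ca9-22, and assumes that KON varies as they do. At an unadjusted p below 0.05, 10 members were higher in KON, against 2.82% of all probes, and 0 were lower. These 10 were PLK1, NEK2, BUB1B, BIRC5, CENPM, KIF20A, PRC1, MKI67, CDCA2, and CDCA3. The same contrast of HSC-3 against the others had a median of -0.58, and that of Ca9-22 a median of -0.20. In either, 0 members passed an unadjusted p of 0.05. Of all probes, 2.41% were lower and 3.22% higher at that p for HSC-3, and 4.62% passed for Ca9-22. The contrasts share arrays, so their medians are not independent.

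**Figure D2:**
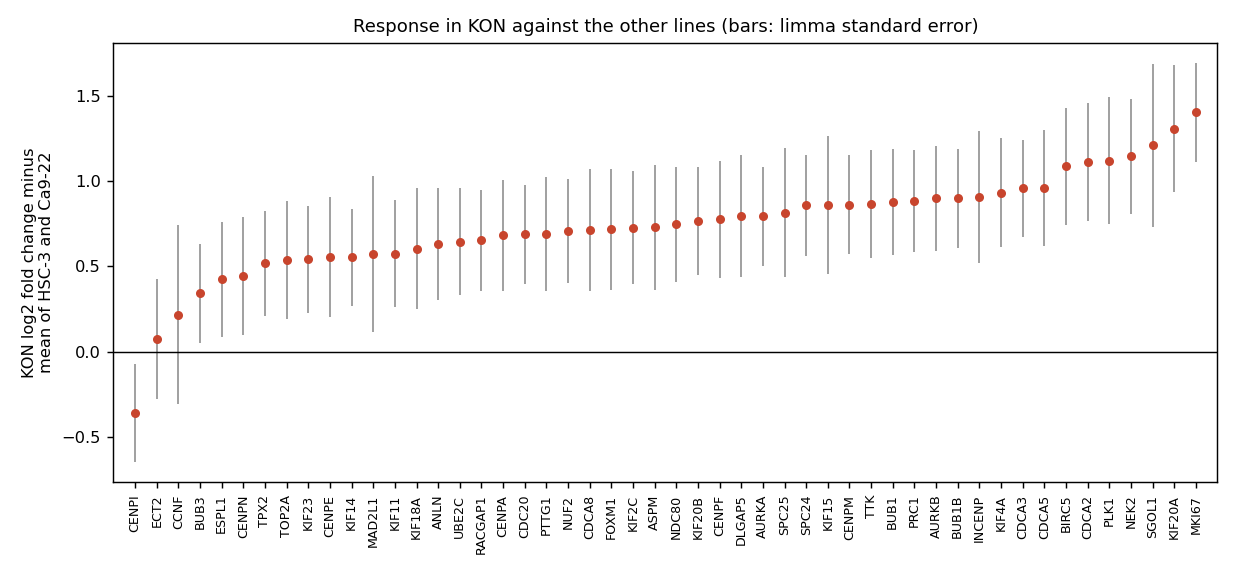
KON contrast (y axis, log2 fold change in KON minus the mean of HSC-3 and Ca9-22) of the 50 genes in rising order, with bars for the standard error from limma. The points run from -0.36 for CENPI to 1.40 for MKI67, and 49 of 50 lie above 0, although no gene passed the adjusted test.

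The lines also differed before knockdown. After siCtrl the level was highest in KON for 38 of the 50 members, against 33.2% of all probes, and highest in Ca9-22 for the other 12. After siDLEU1-2 it was highest in KON for 48, against 33.7%. The median excess of KON over the mean of the others was 0.62 on the log2 scale after siCtrl and 1.32 after siDLEU1-2. The range over the lines was larger after siDLEU1-2 for 47 members, against 58.2% of all probes, with a median range of 1.01 before and 1.83 after. With 1 array per line and siRNA these levels have no test.

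PLK1, AURKA, and NEK2, grouped here as mitotic kinases, were above 0 in KON and below 0 in both other lines. PLK1, which drives entry into and passage through mitosis, was read by a probe at 23700970 to 23701212 of chromosome 16 (hg19). Its log2 level was 0.74 with siCtrl and 0.0048 with siDLEU1-2 in HSC-3. The KON levels were 2.06 and 2.71, and those of Ca9-22 were 1.89 and 1.67. HSC-3 was the lowest line with either siRNA, and only in KON was the siDLEU1-2 array the higher. The KON contrast of PLK1 was 1.12 ± 0.37 (SE; adjusted p = 0.790 from limma), and its mean log2 fold change over the lines was -0.10 ± 0.70 (SD, n = 3 cell lines). This mean was 0.21 without HSC-3, so its sign rests on that line, -0.48 without KON, and -0.046 without Ca9-22.

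AURKA, the kinase of the spindle poles, read 3.36 with siCtrl and 2.83 with siDLEU1-2 in HSC-3. In KON the levels were 4.50 and 4.84, and those of Ca9-22 were 3.79 and 3.41. Every KON value of AURKA was above every value of the other lines. Its KON contrast was 0.79 ± 0.29 (SE; adjusted p = 0.790 from limma). NEK2, a kinase that separates the centrosomes, had log2 fold changes of -0.66, 0.68, and -0.27, given here and below in the order HSC-3, KON, Ca9-22.

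The checkpoint genes as a group had medians of -0.58, 0.41, and -0.21, and all 6 were highest in KON. BUB1, the kinase that builds the checkpoint at the kinetochore, read 1.86 with siCtrl and 0.56 with siDLEU1-2 in HSC-3. The levels in KON were 2.87 and 2.58, and those of Ca9-22 were 2.22 and 1.19. BUB1 was lower in each line and over 2-fold lower in HSC-3 and Ca9-22, yet its mean of -0.87 ± 0.52 (SD, n = 3 lines; limma adjusted p = 0.0912) was not called. BUB1B, which blocks the anaphase-promoting complex, had values of -0.52, 0.45, and -0.38. MAD2L1, its partner in that inhibitor, was at -0.69 in HSC-3 but slightly above 0 in Ca9-22 (0.08) and KON (0.27). BUB3 was above 0 in all 3 lines, at 0.08, 0.48, and 0.21, although HSC-3 turned to -0.026 with quantile normalization and a second BUB3 probe was below 0 in every line, at -0.14, -0.17, and -0.28.

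The 4 genes of the chromosomal passenger complex had medians of -0.82, 0.40, and -0.33. AURKB, its kinase, read 1.44 with siCtrl and 0.96 with siDLEU1-2 in HSC-3. The KON levels were 2.41 and 2.95, and those of Ca9-22 were 1.39 and 1.16. The KON arrays again lay above all others, and the KON contrast was 0.90 ± 0.31 (SE; adjusted p = 0.790 from limma). The mean log2 fold change of AURKB, -0.057, turned to 0.16 without HSC-3 and to 0.030 without Ca9-22. BIRC5 (survivin) had log2 fold changes of -0.70, 0.60, and -0.28. INCENP, the scaffold, had -0.94, 0.25, and -0.37, and CDCA8 (borealin) had -0.98, -0.03, and -0.52.

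**Figure D3:**
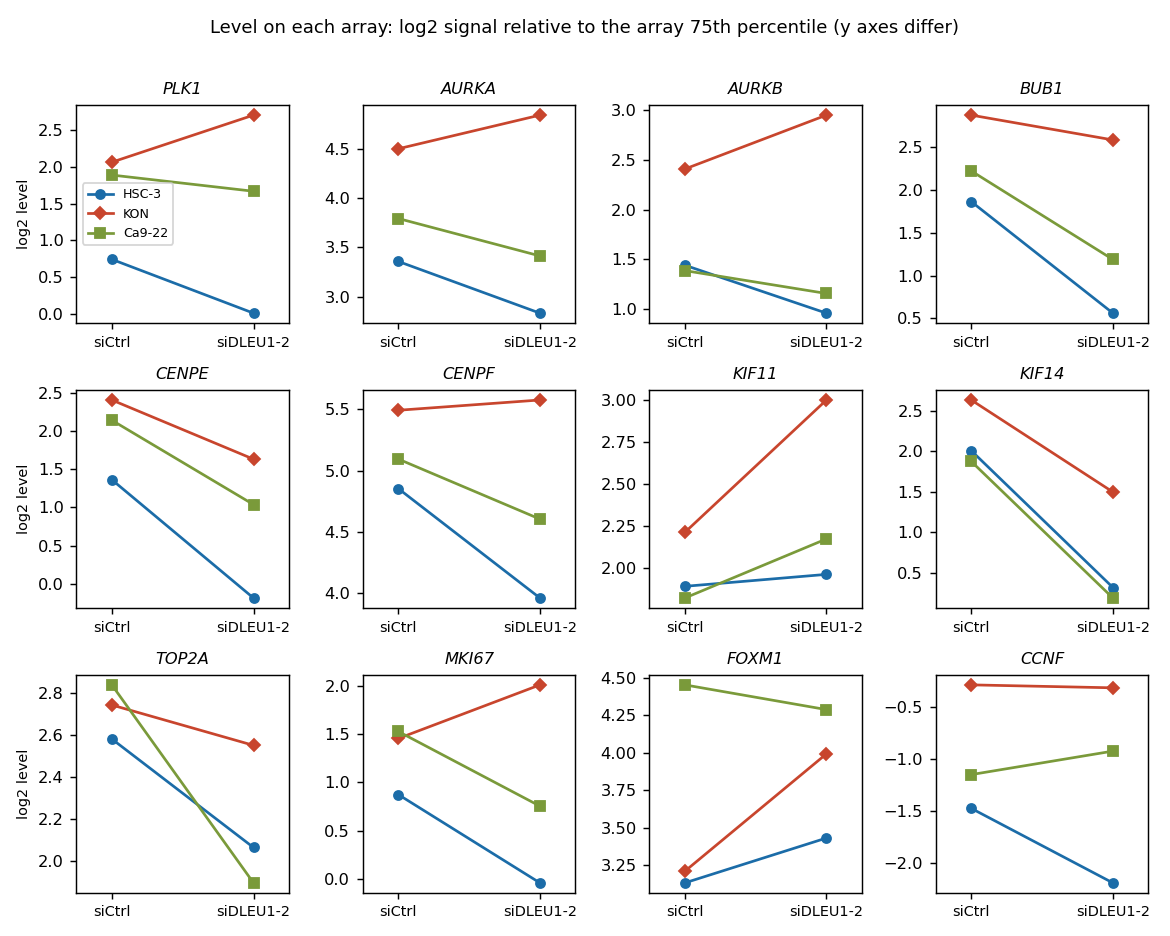
Level on each array (y axis, log2 signal relative to the array's 75th percentile, with a different range in each panel) of 12 genes after siCtrl and siDLEU1-2, with a line joining the 2 arrays of each cell line. KIF14 and CENPE go down in every line, whereas PLK1, AURKA, AURKB, and MKI67 go up in KON (0.64, 0.34, 0.54, and 0.56) and down in HSC-3 and Ca9-22.

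Of the 10 centromere and kinetochore genes, 9 were highest in KON, and the medians were -0.66, 0.15, and -0.45. CENPF, a large kinetochore protein that peaks in G2 and M phase, read 4.85 with siCtrl and 3.96 with siDLEU1-2 in HSC-3. In KON the levels were 5.49 and 5.58, and those of Ca9-22 were 5.09 and 4.60. KON thus differed little between the siRNAs, in a direction that median centering (-0.035) and quantile normalization (-0.0020) turned, while the others were lower, with a KON contrast of 0.78 ± 0.34 (SE; adjusted p = 0.792 from limma). The 4 subunits of the NDC80 complex, which binds microtubules, had log2 fold changes between -0.84 and -0.42 in HSC-3 on their brightest probes, and the other SPC24 probe was at -1.21. In KON they were -0.01 for NUF2, 0.22 for SPC24 (-0.04 on its other probe), 0.34 for NDC80, and 0.66 for SPC25. CENPA, the centromeric histone, was below 0 in all lines, at -1.08, -0.23, and -0.74.

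For CENPN and CENPI, of the constitutive centromere network, the probes of 1 gene differed in direction. The brightest CENPN probe was above 0 in all lines, at 0.47, 0.69, and 0.03, but Ca9-22 turned to -0.025 with quantile normalization and to -0.037 with median centering. Both other CENPN probes were below 0 in HSC-3, at -0.20 and -0.65, and higher in KON, at 0.99 and 1.16. The brightest CENPI probe was at 0.36, 0.04, and 0.45, with KON just below 0 after quantile normalization or median centering (-0.0027 and -0.075), whereas the others were at -0.23, -0.60, and -0.92 and at -0.37, 0.08, and -0.70. The 3 CENPI probes had KON contrasts from -0.36 to 0.62, and KON was highest on only 1 of them. The direction of CENPI thus rests on the chosen probe.

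All 9 kinesin genes were highest in KON, and their medians were -0.86, 0.13, and -0.75. KIF11 (Eg5), which pushes the spindle poles apart, read 1.89 with siCtrl and 1.96 with siDLEU1-2 in HSC-3. The levels in KON were 2.21 and 2.997, and those of Ca9-22 were 1.82 and 2.17. Unlike most members, KIF11 was above its siCtrl level in each line, with a mean of 0.40 ± 0.36 (SD, n = 3 lines; limma adjusted p = 0.239), which was 0.21 without KON. KIF20A, which brings the passenger complex to the midzone, had a KON contrast of 1.31, from log2 fold changes of -1.43, 0.13, and -0.91. KIF15 was at -1.37, -0.20, and -0.75, and KIF18A, which limits chromosome oscillation, was at -1.07, -0.24, and -0.61. KIF4A, a chromosome-bound kinesin, was at -0.86, -0.09, and -1.19. KIF20B had a second probe with a KON contrast of -0.24, of the opposite sign to the 0.77 of the brightest, and its values in KON and Ca9-22 also differed in sign between the probes.

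For the 7 genes of spindle assembly and cytokinesis the medians were -0.58, 0.14, and -0.59, with 6 highest in KON. PRC1, which bundles the midzone microtubules, had log2 fold changes of -0.44, 0.35, and -0.63. ASPM, of the spindle poles, had -1.10, -0.13, and -0.62, and ANLN (anillin), a scaffold of the contractile ring, had -0.62, -0.17, and -0.98. TPX2, which activates AURKA, had -0.50, 0.14, and -0.25. ECT2, which activates RhoA for the cleavage furrow, was highest in HSC-3, with values of -0.14, -0.29, and -0.59.

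The 5 genes of sister chromatid cohesion and separation had the highest KON median of the roles, 0.88, beside medians of -0.29 (HSC-3) and 0.12 (Ca9-22). SGOL1 was at -0.22, 1.40, and 0.60 on its brightest probe and at 0.12, 1.96, and 1.29 on the other, so the sign in HSC-3 and the size in Ca9-22 depend on the probe. Their KON contrasts were 1.21 and 1.26. CDCA5 (sororin), which stabilizes cohesion, was at -0.29, 0.88, and 0.12. UBE2C was above 0 in every line, at 0.51, 1.01, and 0.22 (adjusted p = 0.140 from limma). ESPL1 (separase), which cuts cohesin, was at -0.60, 0.02, and -0.21, with KON at -0.095 after median centering, and its inhibitor PTTG1 (securin) was at -0.59, -0.10, and -0.98.

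MKI67 had the largest KON contrast of the 50 genes when each was taken by its brightest probe, here at 129913193 to 129913252 of chromosome 10 (hg19). Its log2 level was 0.87 with siCtrl and -0.04 with siDLEU1-2 in HSC-3. The KON levels were 1.46 and 2.01, and those of Ca9-22 were 1.53 and 0.75. After siCtrl KON and Ca9-22 were close on this probe, whereas on the other MKI67 probes KON was already the higher, at 1.14 against 0.27 and at 1.48 against 1.06. After siDLEU1-2 KON was the highest on all 3 probes. The contrast was 1.40 ± 0.29 (SE; unadjusted p = 0.0121, adjusted p = 0.790 from limma), and its 3 probes gave 1.09 to 1.40. With the mean of a gene's probes MKI67 was at 1.20, below KIF20A (1.31, 1 probe), NEK2 (1.27), and SGOL1 (1.23).

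TOP2A, the topoisomerase that untangles chromosomes, read 2.58 with siCtrl and 2.06 with siDLEU1-2 in HSC-3. In KON the levels were 2.74 and 2.55, and those of Ca9-22 were 2.84 and 1.90. TOP2A was lower in each line, with a mean of -0.55 ± 0.38 (SD, n = 3 lines; limma adjusted p = 0.145), and least so in KON. The mean was -0.35 without Ca9-22, where the KON contrast of 0.54 was 0.32. CDCA2, which recruits a phosphatase to chromatin, was at -0.77, 0.55, and -0.35.

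Of the regulators, FOXM1, the transcription factor of G2 and M phase genes, read 3.13 with siCtrl and 3.43 with siDLEU1-2 in HSC-3. The levels in KON were 3.21 and 3.99, and those of Ca9-22 were 4.45 and 4.29. FOXM1 was thus above its siCtrl level in HSC-3, where most other members were below theirs. CCNF (cyclin F), a ubiquitin ligase subunit, had HSC-3 levels of -1.48 with siCtrl and -2.19 with siDLEU1-2. The KON levels were -0.28 and -0.31, and those of Ca9-22 were -1.15 and -0.92. CCNF was thus lower mainly in HSC-3, and its log2 fold change was highest in Ca9-22, as that of CENPI was. CDCA3, a trigger of mitotic entry, was at -1.18, -0.20, and -1.13.

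Genes of mitosis outside the 50 were described in the same way. Of 90 such genes, 88 passed the filter, with medians of -0.34 (HSC-3), 0.13 (KON), and -0.22 (Ca9-22), and 65 were highest in KON. Spindle and cytokinesis genes had medians of -0.72, 0.09, and -0.48, with 23 of 27 highest in KON. The 29 other kinetochore genes had -0.23, 0.32, and 0.04, with 23 highest in KON and 8 above 0 in every line. The 17 condensin and cohesin genes had -0.21, 0.18, and -0.34, with 15 highest in KON, and here Ca9-22 rather than HSC-3 had the lowest median. The 15 genes of the anaphase-promoting complex, most of which are not bound to a phase of the cycle, had -0.19, -0.38, and -0.07, and 4 were highest in KON. With limma, 4 of the 88 genes were called lower and 0 higher, which is near the 4.52% of all probes called lower. The 4 were CEP55 (mean log2 fold change -1.35), which recruits the abscission machinery, FAM83D (-1.001), NCAPD3 (-0.99), and ANAPC4 (-0.80), and CEP55 was over 2-fold lower in every line.

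In genes of mitotic entry and DNA replication the median was lowest in HSC-3 and highest in KON. Values are given in the order HSC-3, KON, Ca9-22. The 9 mitotic entry genes had medians of -0.37, 0.63, and -0.12, with 8 highest in KON. Among them WEE1, the kinase that holds back CDK1, was called higher, with log2 fold changes of 1.38, 1.53, and 1.23 (adjusted p = 0.0247 from limma). The 50 DNA replication genes had medians of -0.22, 0.42, and 0.05, and 46 were highest in KON. In KON, 10 of them were over 2-fold higher, against 7.3% of all probes, and 1 was over 2-fold lower. With limma, 2 of the 50 were called lower, near the background of 4.52%, and 0 higher. MCM7, of the replicative helicase, was over 2-fold lower in every line (mean log2 fold change -1.10, adjusted p = 0.0297), and CDC45 was called lower (-1.06, adjusted p = 0.0315), both by limma. A CHR was in the promoters of 50.6% of the 77 other mitosis genes matched and of 7.32% of the 41 replication genes matched, whereas TTCCCGC was in 41.5% of the latter. The median was highest in KON for the members, the other mitosis genes, and the replication genes. Whether these motifs bear on that was not tested, and no difference between the lists was tested.

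**Figure D4:**
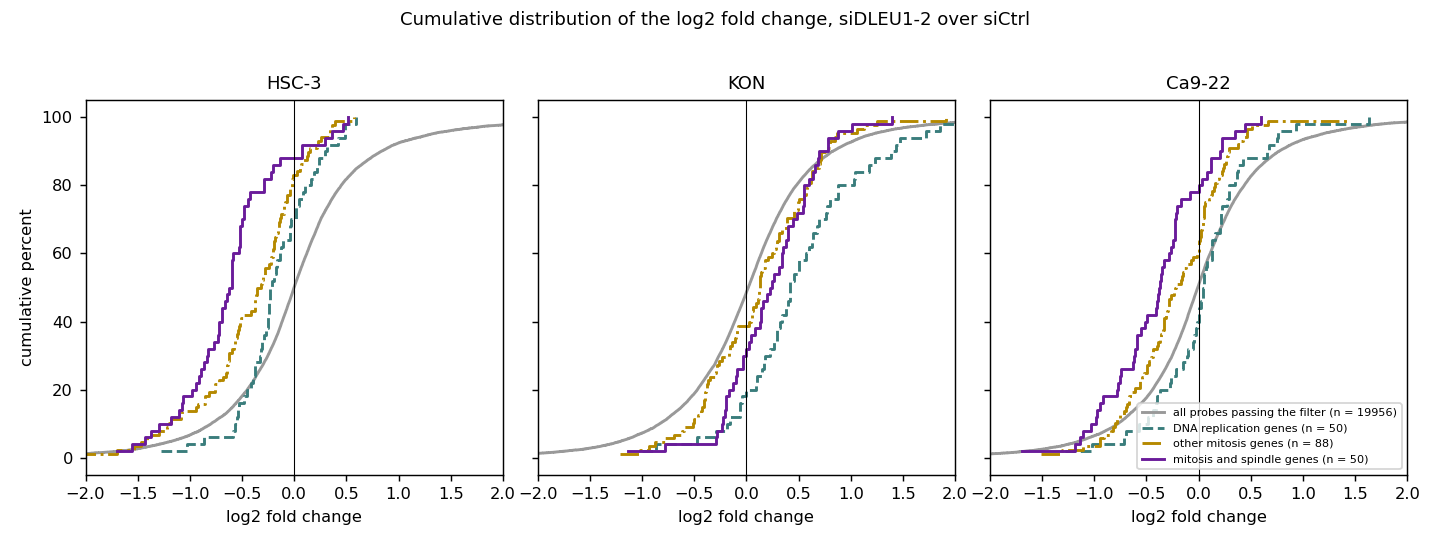
Cumulative percent (y axis) of genes or probes at or below each log2 fold change (x axis, siDLEU1-2 over siCtrl) in HSC-3, KON, and Ca9-22, for the 50 mitosis and spindle genes, 88 other mitosis genes, 50 DNA replication genes, and all 19956 probes that passed the filter. The members lie left of all probes in HSC-3 and Ca9-22 (medians -0.61 and -0.38) and right of them at the median in KON (0.23).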

How the data were processed

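The authors deposited scanner output from SurePrint G3 Human GE v2 one-color arrays (Agilent Feature Extraction 10.7, per the labels), in which the processed intensity of each spot is background-subtracted and not normalized between arrays. GeneSpring GX was the analysis software, with a normalization not given in the sources used here. The deposited series table holds the same intensity within 0.497%. From these files, control spots and outlier spots were left out, the spots of a probe were averaged, and each array's 75th percentile was subtracted from the log2 intensity. A probe was kept if, in every line, 1 or both of the 2 arrays had at least 50% of its spots well above background (19956 of 50599 probes). The number of arrays limits the precision. The linear model in limma 3.58.1 (R 4.3.3) had siRNA and cell line as terms, with Benjamini-Hochberg adjustment over all probes kept. The cell line pairs the arrays, and deviations from the siRNA means correlated within pairs at 0.83, 0.81, and 0.82 in HSC-3, KON, and Ca9-22. The KON contrast was the interaction of siRNA and KON. Each line was arrayed once per siRNA, so p-values measure the spread between the lines. Within a line, over 2-fold counted as different, without a test. The fits were also run on simulated data. The simulated KON contrast was larger than that of any member and was read at an unadjusted p. It does not show whether contrasts of the size reported here would be found. Members and lists were chosen with earlier results of these data known. Values on all arrays are given for genes called or over 2-fold in all lines, or opposite by over 2-fold, and for PLK1, AURKA, AURKB, BUB1, CENPF, TOP2A, KIF11, FOXM1, MKI67, and CCNF. Alternatives were other scalings, background corrections, filters, thresholds, probe rules and tests, and leaving out each line. Probe coordinates are hg19, and promoters are RefSeq of GRCh38.p14.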

Additional observations from a re-analysis of the deposited data

Results flagged for a closer look

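The response of the mitosis and spindle genes differed between KON and the other lines. The median difference of the log2 fold change, KON minus the mean of HSC-3 and Ca9-22, was 0.74 over the 50 genes, and 49 lay above 0. The difference was tested for each gene with limma, and 0 of 50 passed an adjusted p of 0.05, as did 0% of all probes. At an unadjusted p below 0.05, 10 were higher in KON, against 2.82% of all probes. The median itself was not tested, and with 1 array per line and siRNA the line and the array cannot be told apart.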

How the results depend on the processing

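The median KON contrast was 0.64 to 0.89 over the alternatives, 0.71 relative to the median of all probes in each line (an alternative chosen after seeing the data), and its direction was kept. Centering on the array median moved the median of all probes in KON to -0.10 and that of the members there from 0.23 to 0.12, with 19 in place of 16 members below 0. Over 2-fold higher in KON there was 1 member, in place of 2, with quantile normalization, with median centering, and with the 75th percentile of probes detected on all arrays, and with median centering 8 were over 2-fold lower in Ca9-22. At 1.5-fold the counts were 29 lower in HSC-3 (15.1% of all probes), 2 lower (16%) and 10 higher (16.1%) in KON, and 18 lower (14.9%) and 1 higher (14.5%) in Ca9-22. At 3-fold they were 1 lower in HSC-3 (2.26% of all probes), 0 lower (2.43%) and 0 higher (2.73%) in KON, and 1 lower in Ca9-22 (2.16%). limma called 0 members lower without a filter on dim probes (6816 probes had an unadjusted p below 0.05) and without the cell line as a replicate block (1357), the methods' t-test called 0 (1373), and leaving out each line gave 0 to 0. Without 1 line at a time, the mean log2 fold change ranged from -0.48 to 0.21 for PLK1, from -0.36 to 0.16 for AURKB, from -0.37 to 0.099 for CCNF, from -0.45 to -0.019 for AURKA, from -0.69 to -0.20 for CENPF, from -0.85 to -0.11 for MKI67, and from 0.067 to 0.54 for FOXM1, each with its lowest value without KON except CCNF (without Ca9-22), and the KON contrast of CCNF from -0.26 to 0.69. The signs of PLK1, AURKB, and CCNF turned without HSC-3, and that of AURKB also without Ca9-22 (0.030). The KON contrast of CENPE was 0.33 without HSC-3. The causes were not tested. Of the other main results, 150 values kept their direction and side. Single array pairs limit what differences within a line can show.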
